A study of Mus musculus with 8 samples.

Results

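The vacuolar proton pump, or V-ATPase, is described here through 10 genes that were chosen by name: 5 subunits of its membrane sector V0 (Atp6v0a1, Atp6v0b, Atp6v0c, Atp6v0d1 and Atp6v0e), 3 subunits of its soluble sector V1 (Atp6v1a, Atp6v1b2 and Atp6v1e1) and the 2 accessory proteins Atp6ap1 and Atp6ap2. They are 10 of the 35583 genes listed in the deposited tables, and all 10 passed the filter on low counts that left 13277 genes for testing. Bulk RNA sequencing was done on microglia, the resident macrophages of the brain, that had been sorted out of hypothalamus tissue of wild-type young mice. All mice had received dye-labelled plasma protein 20 hours earlier, and the cells were collected as plasma-positive (4 libraries) or plasma-negative (4 libraries). The comparison asks how microglia carrying the labelled protein differ from those without it. Both groups come from injected animals of 1 genotype. The labels give neither the sort gates, nor the age in weeks, nor whether each library came from its own animal, so p-values measure only the spread between these libraries, which may be technical.

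The V-ATPase moves protons into endosomes, phagosomes and lysosomes. V1, on the cytosolic face, hydrolyses ATP in its A and B subunits and turns a rotor, while V0 carries protons through the membrane between subunit a and a ring of proteolipids. In macrophages the resulting acid activates the proteases that digest engulfed material, and V1 can be attached to or released from V0 to set the activity. In bulk libraries, fewer cells of a type and less RNA per cell cannot be told apart.

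MiT/TFE transcription factors, which include TFEB and TFE3, are known to bind the word CACGTG in promoters of lysosomal genes, so the stretches that hold it are shown for the pump genes. RefSeq promoter windows of build GRCm38.p6 (250 bases before to 50 after each start) were matched for 9 of the 10 genes, with 11 windows. The word, which reads the same on both strands, was in 4 of these 11 windows, each of a different gene, and in 2349 of all 32851 windows (7.15%); by gene this is 4 of 9 against 2187 of 27025 (8.09%). The longer TCACGTGA, which contains it and is also its own reverse complement, was in 3 of the 11 windows (Atp6v0d1, Atp6v0e and Atp6v1a) and in 320 of all windows (0.974%), or 304 of all genes (1.12%). Each stretch is written 5′ to 3′ along the gene's strand, ends at most 10 bases past the RefSeq start, and has CACGTG in capitals.
Atp6v0b, chr4:117887320-117887392, minus strand: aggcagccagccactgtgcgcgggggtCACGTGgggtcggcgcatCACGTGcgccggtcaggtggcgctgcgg
Atp6v0d1, chr8:105566055-105566094, minus strand: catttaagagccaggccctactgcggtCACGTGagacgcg
Atp6v0e, chr17:26676372-26676405, plus strand: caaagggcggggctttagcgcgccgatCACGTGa
Atp6v1a, chr16:44139358-44139417, minus strand: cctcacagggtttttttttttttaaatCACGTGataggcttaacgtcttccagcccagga

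In Atp6v0b the word occurs at 2 places, beginning 36 and 18 bases before the start. It begins 3 bases before the start in Atp6v0d1, 131 bases before it in Atp6v1a and 3 bases after it in Atp6v0e. The RefSeq start of the Atp6v0e window lies 13165 bases downstream of the 5′ end of the deposited gene model, and that of Atp6v1a 446 bases downstream, so these windows belong to inner starts of those models. No match was found in the windows of Atp6v0a1, Atp6v0c, Atp6v1e1, Atp6ap1 and Atp6ap2, nor in the 13 windows of 10 matched genes for other pump subunits. A match describes letters only.

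Across the pump, 9 of the 10 genes had a higher fitted level in plasma-positive microglia, but none of these differences passed the test. edgeR's quasi-likelihood test with Benjamini-Hochberg adjustment over all tested genes called 0 of the 10 at an adjusted p under 0.05, against 187 of 13277 genes (1.41%). At an unadjusted p under 0.05 there were 4 of the 10 (Atp6v0e, Atp6v1e1, Atp6ap1 and Atp6ap2), all higher in plasma-positive libraries, against 13.8% of all genes in either direction and 7.13% in that direction. A fold change above 0 was found for 50.4% of all genes. In 3 of the 10 (Atp6v0b, Atp6v1e1 and Atp6ap1) all plasma-positive libraries lay above all plasma-negative ones, against 5.68% of all genes (10.3% in either direction). These levels are read counts scaled by the library total and by TMM factors. Without the TMM factors the groups overlap for Atp6v0b and Atp6ap1 and stay apart for Atp6v1e1. The median log2 fold change was 0.21 over the 10 genes and 0.01 over all tested genes.

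Other tests called up to 2 of them. DESeq2 called 1 of the 10 (Atp6v1e1, adjusted p = 0.0077), against 6.49% of genes with an adjusted p. limma on log2(RPKM + 1), a level per exon length, called 2 (Atp6v1e1, adjusted p = 0.0273, and Atp6ap1, adjusted p = 0.0484), against 3.37% of genes. With a pseudocount of 0.1, limma called Atp6v1e1 (adjusted p = 0.0295), against 3.25%. RPKM values in the plasma-positive libraries were higher for most genes, with a median difference over all genes of 0.11 at a pseudocount of 1 and 0.16 at 0.1, so these calls stand against that shift.

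Fold changes in these libraries were lower for genes with longer exons. Across 5176 genes with a mean of at least 32 CPM (TMM-scaled read counts relative to the library total), the log2 fold change and exon length had a Spearman correlation of -0.46, and GC content 0.23; genes are not independent replicates. After a correction for both, 7 of the 10 pump genes were above 0, against 5912 of all 13277 genes, the median over the 10 was 0.10 against -0.06 over all genes, and none was called, against 0.512% of genes. At an unadjusted p under 0.05, Atp6v1e1 and Atp6ap2 remained, both higher, against 636 of the 13277 genes in that direction.

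**Figure D1:**
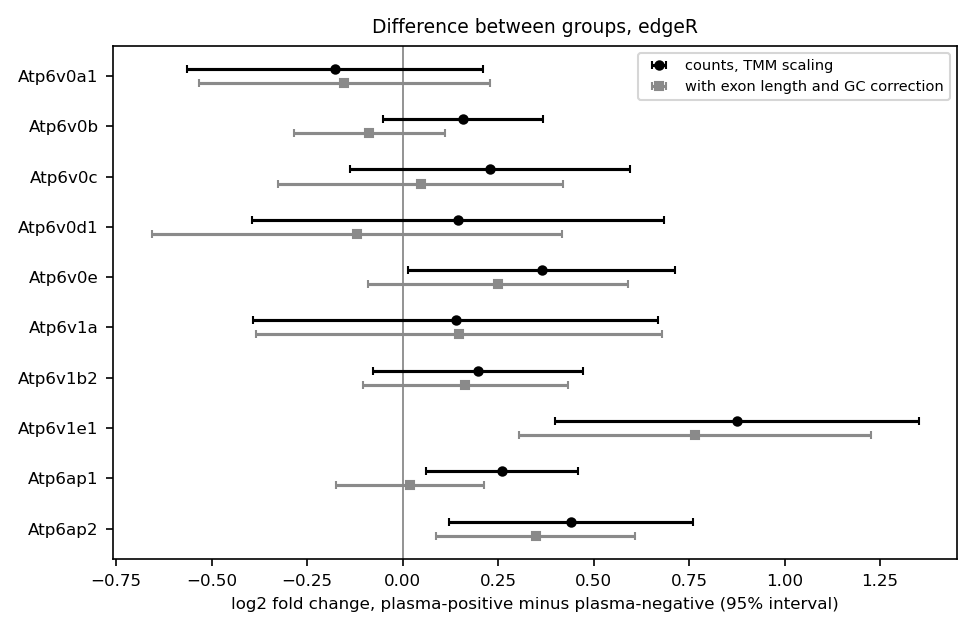
Log2 fold change of the 10 pump genes (x axis, plasma-positive minus plasma-negative, 95% intervals from edgeR), with TMM scaling in black and with the exon length and GC correction in grey. Atp6v1e1 lies farthest to the right under both, and the intervals of Atp6v0b, Atp6v0e and Atp6ap1 include 0 in grey.

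Atp6v1e1, at chr6:120794305-120822793 on the minus strand, encodes the E subunit of the peripheral stalk that holds V1 still against the turning rotor. It showed the widest difference among the 10. Its level was 42.8, 78.9, 45.6 and 53.2 CPM in plasma-negative libraries 1 to 4, and 90.8, 105.8, 118.3 and 89.1 CPM in plasma-positive libraries 1 to 4. The groups do not overlap, and plasma-negative library 2 stands closest to the plasma-positive ones. The means were 55.1 ± 16.4 and 101 ± 13.8 CPM (SD, n = 4), a log2 fold change of 0.87 (SE 0.22, 95% interval 0.40 to 1.35), with an edgeR adjusted p of 0.0766. On the linear scale that interval runs from 1.32-fold to 2.55-fold higher. Leaving out 1 library gave log2 fold changes of 0.77 to 1.11, with edgeR adjusted p-values of 0.0378 to 0.187. The only call was without plasma-negative library 2, the one closest to the plasma-positive libraries, so this call is not taken as support. After the length and GC correction the log2 fold change was 0.77 (edgeR adjusted p = 0.171).

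The other V1 genes differed less. Atp6v1a, at chr16:44085402-44139705 on the minus strand, encodes the A subunit, where ATP is hydrolysed. It was at 121.8, 91.9, 73.6 and 145.7 CPM in plasma-negative libraries and at 118.0, 160.8, 113.1 and 82.1 CPM in plasma-positive ones. The groups overlap over most of their range, and the log2 fold change was 0.14 (SE 0.24, edgeR adjusted p = 0.871). Without plasma-positive library 2, the highest, it was -0.04.

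Atp6v1b2, at chr8:69088646-69113711 on the plus strand, encodes the form of the B subunit found in most tissues. Plasma-negative libraries ranged from 160 to 191 CPM and plasma-positive ones from 174 to 225 CPM, with means of 178 ± 14.4 and 204 ± 23.9 CPM (SD, n = 4). The plasma-positive library 3 lies within the plasma-negative range, and the log2 fold change was 0.20 (SE 0.13, edgeR adjusted p = 0.542).

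The accessory proteins include Atp6ap2, also known as the prorenin receptor, which takes part in assembly of the pump and lies at chrX:12587801-12617049 on the plus strand. Its level was 249, 287, 283 and 411 CPM in plasma-negative libraries 1 to 4, and 372, 434, 446 and 412 CPM in plasma-positive libraries 1 to 4. Plasma-negative library 4, the one with the fewest counts, sits among the plasma-positive libraries, and the other 3 lie below all of them. The log2 fold change was 0.44 (SE 0.15, 95% interval 0.12 to 0.76), with an edgeR adjusted p of 0.185. Leaving out 1 library gave 0.35 to 0.61, with edgeR adjusted p-values of 0.0260 to 0.335. The only call was without plasma-negative library 4, the one among the plasma-positive libraries, so this call is not taken as support. After the length and GC correction the log2 fold change was 0.35 (edgeR adjusted p = 0.293).

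Atp6ap1, known as Ac45, binds V0 and takes part in its assembly and sorting; the gene lies at chrX:74297097-74304721 on the plus strand. It was at 455, 522, 420 and 520 CPM in plasma-negative libraries and at 584, 577, 558 and 576 CPM in plasma-positive ones. The groups do not overlap, and the plasma-positive libraries are close together, with means of 479 ± 50.2 and 574 ± 11.1 CPM (SD, n = 4). The log2 fold change was 0.26 (SE 0.09, edgeR adjusted p = 0.215). After the length and GC correction it was 0.02 (95% interval -0.18 to 0.21).

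**Figure D2:**
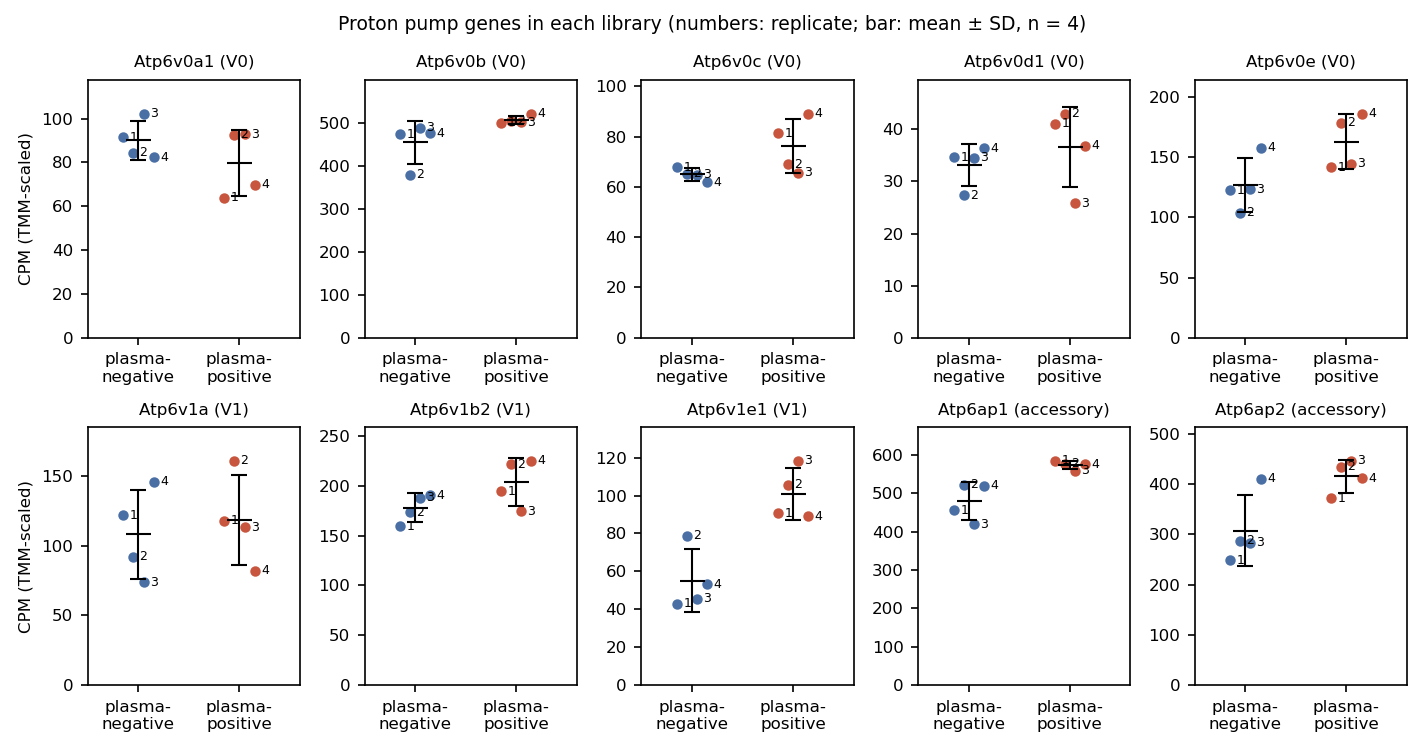
TMM-scaled CPM (y axis, from 0) of each pump gene in the 4 plasma-negative (blue) and 4 plasma-positive (red) libraries, numbered by replicate, with bars for mean and SD. The groups separate for Atp6v0b, Atp6v1e1 and Atp6ap1, and plasma-negative library 4 of Atp6ap2 lies among the red points.

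Among the V0 genes, Atp6v0e encodes a small hydrophobic subunit and lies at chr17:26663231-26699647 on the plus strand. It was at 122, 104, 123 and 158 CPM in plasma-negative libraries and at 141, 178, 145 and 186 CPM in plasma-positive ones. Plasma-negative library 4 falls inside the plasma-positive range, and the other 3 lie below it. Its log2 fold change was 0.36 (SE 0.16, 95% interval 0.01 to 0.71), with an edgeR adjusted p of 0.338.

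Atp6v0b encodes a proteolipid of the proton-carrying ring (chr4:117884326-117887333, minus strand). It was at 474, 380, 489 and 476 CPM in plasma-negative libraries and at 500.1, 505, 502 and 522 CPM in plasma-positive ones. The groups do not overlap, although 3 of the plasma-negative libraries lie just below the lowest plasma-positive one. Its log2 fold change was 0.16 (SE 0.10, edgeR adjusted p = 0.518), and with correction for length and GC content it was -0.09. Exons of Gm12841 on the opposite strand cover 11.8% of the Atp6v0b exon length, and without stated strand counting reads of the pair cannot be told apart.

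Atp6v0c, the other proteolipid gene of the ring (chr17:24163866-24169702, minus strand), was at 65.0 ± 2.44 and 76.3 ± 10.9 CPM (SD, n = 4). Plasma-positive libraries 1 and 4, at 81.3 and 89.1 CPM, lie above all plasma-negative ones, while libraries 2 and 3, at 69.1 and 65.6 CPM, are near the plasma-negative maximum of 67.9. Its log2 fold change was 0.23 (SE 0.17, edgeR adjusted p = 0.613). Processed copies of the gene exist in the mouse genome, so its counts are uncertain where reads could be split.

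Atp6v0d1 encodes subunit d, which joins the ring to the rotor of V1 (chr8:105524465-105566047, minus strand). Plasma-negative libraries ranged from 27.3 to 36.3 CPM and plasma-positive ones from 25.8 to 43.0 CPM, so the wider plasma-positive range includes the other. Its log2 fold change of 0.14 (SE 0.25, edgeR adjusted p = 0.869) became -0.12 once length and GC content were corrected for.

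Atp6v0a1 encodes a form of subunit a, which carries the proton paths of V0 and is known as the main form of neurons (chr11:101009452-101063719, plus strand). It was the 1 gene of the 10 with a fold change below 0. It was at 91.5, 84.5, 102.3 and 82.4 CPM in plasma-negative libraries and at 63.9, 92.6, 92.8 and 69.9 CPM in plasma-positive ones. Plasma-positive libraries 1 and 4 lie below every plasma-negative library, and libraries 2 and 3 lie within their range. Its log2 fold change was -0.18 (SE 0.18, 95% interval -0.56 to 0.21), with an edgeR adjusted p of 0.739.

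Summed over the 10 genes, the plasma-negative level was 1898 ± 158 CPM and the plasma-positive level 2276 ± 84.9 CPM (SD, n = 4), with ranges of 1813 to 2135 and 2188 to 2388 CPM. The sums do not overlap on this scale, and plasma-negative library 4 is the highest of its group. Without the TMM factors that library lies above plasma-positive library 1, so the sums then overlap. By sector, the V0 genes summed to 770 ± 73.8 and 863 ± 39.0 CPM, the V1 genes to 341 ± 35.6 and 423 ± 43.3 CPM, and the accessory genes to 787 ± 108 and 990 ± 24.4 CPM (SD, n = 4). The largest part of the difference in summed CPM thus lay in Atp6ap1 and Atp6ap2.

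Levels between genes are compared per exon length, as the deposited RPKM (reads per kilobase of exon after scaling for sequencing depth), averaged over all 8 libraries. Atp6v0b was the highest of the 10 at 180 RPKM, followed by Atp6ap1 at 134 and Atp6ap2 at 106 RPKM, and this order was the same in all 8 libraries. Atp6v0e at 30.0 and Atp6v1b2 at 27.6 RPKM came next, and Atp6v0e was the higher in 6 of 8 libraries, so these neighbours do not separate. Both lay above a group of 4 genes, Atp6v0c (16.0 RPKM), Atp6v0d1 (14.9 RPKM), Atp6v1e1 (14.7 RPKM) and Atp6v1a (14.4 RPKM), whose order changed from library to library. Atp6v0a1 was the lowest at 9.89 RPKM and lay below Atp6v1a in 7 of 8 libraries.

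The accessory genes and Atp6v0b therefore had RPKM values several times those of the catalytic A and B subunit genes in the same libraries. For the other pump genes, Atp6v1f was at 71.7, Atp6v1g1 at 60.03, Tcirg1 at 37.2, Atp6v1c1 at 32.6, Atp6v0a2 at 25.8, Atp6v1d at 14.3 and Atp6v1h at 5.60 RPKM. These RPKM levels were not corrected for GC content.

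**Figure D3:**
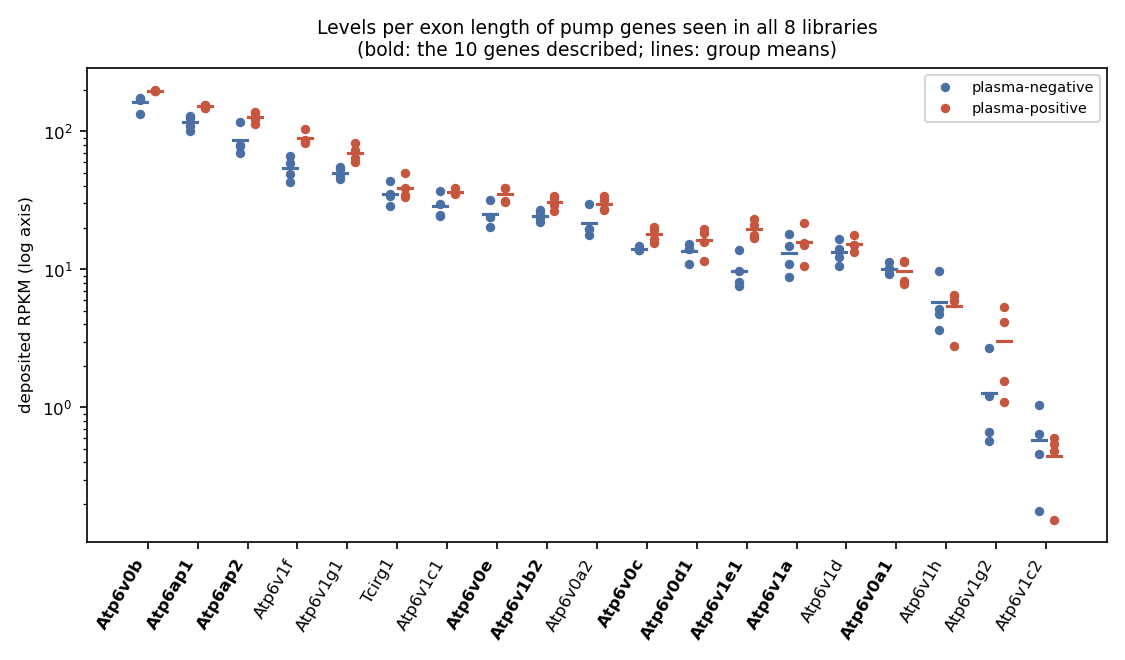
Deposited RPKM (y axis, log scale) of the pump genes seen in all 8 libraries, ordered by mean, with plasma-negative libraries in blue, plasma-positive in red and lines at group means; the 10 genes are in bold. Atp6v0b, Atp6ap1 and Atp6ap2 lead, and Atp6v0c, Atp6v0d1, Atp6v1e1 and Atp6v1a overlap one another.

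Several subunits are encoded by more than 1 gene, and the share of each paralog in its family's RPKM shows which form is measured. For subunits d, B and E the share of Atp6v0d1, Atp6v1b2 and Atp6v1e1 was 100% in all 8 libraries, since Atp6v0d2, Atp6v1b1 and Atp6v1e2 had 0 counts throughout. Atp6v1g3, a form of subunit G, also had 0 counts. A count of 0 allows up to 3 counts per library, which is 0.133 to 1.01 CPM depending on depth and covers counting error only.

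For subunit a, Atp6v0a1 took 13.97, 15.3, 17.1 and 13.9% of the family's RPKM in plasma-negative libraries and 10.5, 15.9, 12.003 and 11.1% in plasma-positive ones. Plasma-positive library 2 lies inside the plasma-negative range and the other 3 lie below it. The means were 15.1% ± 1.49 and 12.4% ± 2.42 (SD, n = 4), a difference of -2.68 percentage points (exact two-sided permutation p = 0.114, adjusted over the 2 families tested 0.228). Without plasma-positive library 2 the difference was -3.85 points; that is the library whose share lay inside the other group's range, so no test is given without it. The rest of the family was mostly Tcirg1, the form known from osteoclasts and macrophages, with 42.4 to 59.3%, and Atp6v0a2, known from endosomes and the Golgi apparatus, with 26.7 to 43.7% of the RPKM.

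For subunit e, the share of Atp6v0e was 97.6% ± 3.14 without and 93.4% ± 8.14 with the labelled protein (SD, n = 4; exact two-sided permutation p = 0.486, adjusted over the 2 families 0.486). The difference of -4.22 points rested on plasma-positive library 2, where the share was 81.4%, and was -0.20 points without it. In that library Atp6v0e2, a form known from brain, was at 26.2 CPM, against 0 to 4.72 CPM in the other 7.

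**Figure D4:**
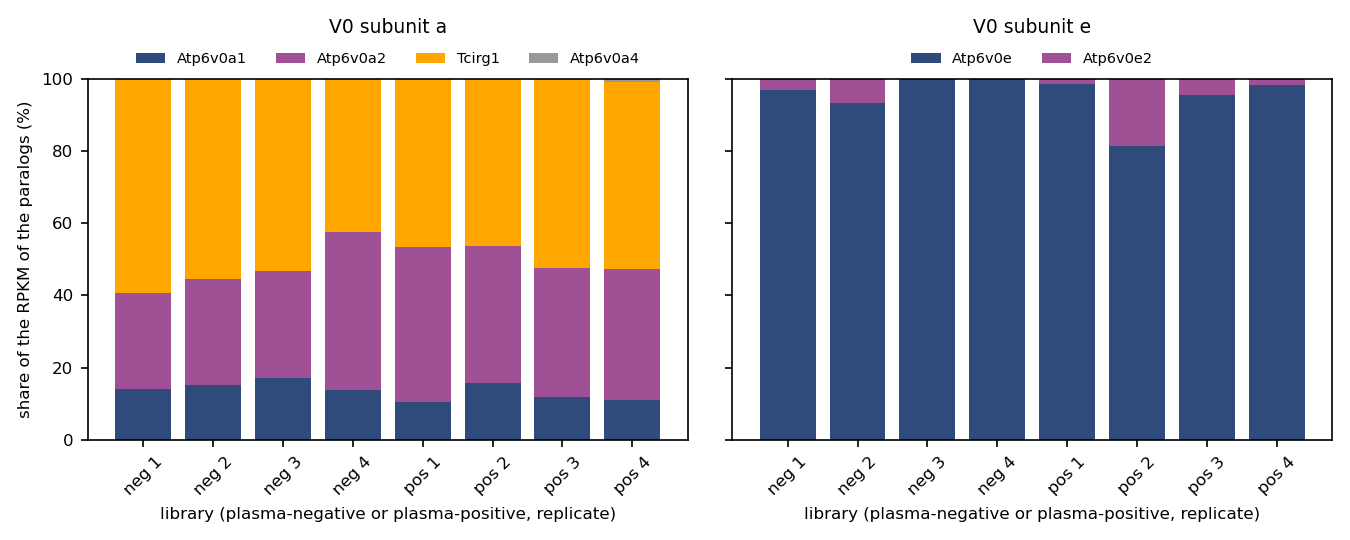
Share of each paralog in the summed RPKM of subunit a (left) and subunit e (right) in each library (y axis, percent; stacked bars, plasma-negative then plasma-positive). Tcirg1 and Atp6v0a2 take most of subunit a, and Atp6v0e2 is widest in plasma-positive library 2.

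The 15 other genes for pump subunits were examined in the same fit, and 10 of them passed the filter. edgeR called 0 of these 10, against 1.41% of all genes. At an unadjusted p under 0.05 there were 3 (Atp6v1f, Atp6v0a2 and Atp6v1g1), all higher in plasma-positive libraries, against 7.13% of all genes in that direction. Of the 10, 8 were above 0, against 50.4% of all genes, with a median log2 fold change of 0.29. After the length and GC correction 8 were above 0, against 5912 of 13277 genes, and the median was 0.14, against -0.06. Only Atp6v0a2 then had an unadjusted p under 0.05, against 636 of the 13277 genes in that direction. DESeq2 (6.49% of all genes called) and limma at pseudocounts of 1 (3.37%) and 0.1 (3.25%) each called 1, Atp6v1f, a subunit of the V1 rotor. Atp6v1f was at 71.0, 63.3, 97.2 and 83.4 CPM in plasma-negative libraries and at 114.5, 136.7, 110.7 and 113.5 CPM in plasma-positive ones. Its groups do not overlap, and its log2 fold change was 0.60 (SE 0.17) with an edgeR adjusted p of 0.123, DESeq2 adjusted p of 0.0236 and limma adjusted p of 0.0193 at a pseudocount of 1. After the length and GC correction it was 0.25.

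Atp6v0a2 had means of 198 ± 45.2 and 253 ± 26.8 CPM (SD, n = 4; log2 fold change 0.36, edgeR adjusted p = 0.338). Atp6v1g1, the widespread form of stalk subunit G, had 77.8 ± 7.15 and 99.5 ± 13.7 CPM (SD, n = 4; log2 fold change 0.36, edgeR adjusted p = 0.350). Among the V1 genes of higher level, log2 fold changes were 0.22 for Atp6v1c1, 0.08 for Atp6v1d and -0.22 for Atp6v1h, whose product is needed for ATP hydrolysis, and the edgeR adjusted p was 0.536 or higher for each. Tcirg1, at 222 ± 39.6 and 225 ± 42.7 CPM (SD, n = 4), had a log2 fold change of 0.02, with a sign that turned under other scalings.

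The 3 tested genes with the lowest levels were Atp6v0e2, Atp6v1g2 and Atp6v1c2. Atp6v1g2, the form of subunit G known from neurons, was at 9.21, 2.33, 1.98 and 4.04 CPM in plasma-negative libraries and at 12.98, 16.4, 3.40 and 5.03 CPM in plasma-positive ones (log2 fold change 1.10, edgeR adjusted p = 0.565). Plasma-positive libraries 1 and 2 were the highest, and the other 2 lie within the plasma-negative range. The log2 fold change of Atp6v0e2 was 2.21 (edgeR adjusted p = 0.542; 0.54 without plasma-positive library 2) and that of Atp6v1c2 was -0.47 (edgeR adjusted p = 0.894). Atp6v0a4 did not pass the filter.

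Markers of other brain cells moved with these libraries. The summed level of 12 neuron markers, led by Snap25 and Syt1, was 4.71 to 35.1 CPM in plasma-negative libraries, and 93.0 and 367 CPM in plasma-positive libraries 1 and 2 against 17.1 and 17.4 in libraries 3 and 4; all 12 were seen in at least 1 library. Of the 7 neuron markers tested, 1 was called: Pomc, a hypothalamic neuropeptide precursor that is named because of this call, had 0 counts in every plasma-negative library and was at 2.09, 1.07, 6.80 and 11.3 CPM in plasma-positive libraries 1 to 4 (edgeR adjusted p = 0.0346, against 0.844% of all genes called higher). Pomc thus passed the filter on low counts only through its plasma-positive libraries, so its call is not taken as support. The call was lost without any 1 of the 8 libraries (edgeR adjusted p = 0.0531 to 0.106) and after the length and GC correction (edgeR adjusted p = 0.0588). Its highest values were thus in libraries 3 and 4, where the sum was low. The 8 oligodendrocyte markers, led by Cnp and Mbp, summed to 163 to 230 CPM in plasma-negative libraries and 222 to 537 CPM in plasma-positive ones, highest in library 2. The 8 blood myeloid markers summed to 523 CPM in plasma-positive library 3, mostly S100a8 and S100a9, and to at most 14.9 CPM elsewhere, with Retnlg at 0 throughout. Their part in the pump values was not tested. Without plasma-positive library 2, the log2 fold change of Atp6v1e1 was 0.85 and 8 of the 10 pump genes were above 0; without plasma-positive library 3, Atp6v1e1 was at 0.79 and 9 of 10 were above 0.

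Astrocyte markers (8 genes, led by Slc1a3 and Slc1a2) summed to 214 to 327 CPM in plasma-negative libraries and 209 to 304 CPM in plasma-positive ones. Most of that sum was Slc1a3, at 238 ± 54.3 and 185 ± 14.7 CPM (SD, n = 4; log2 fold change -0.36, edgeR adjusted p = 0.326). The other 4 of the 5 tested astrocyte markers were above 0, among them Slc1a2 with 2.74 (edgeR adjusted p = 0.323), and the median over the 5 was 1.58. The endothelial sums (8 genes, led by Pecam1 and Kdr) were 27.3 to 52.7 and 21.6 to 65.1 CPM. Border-associated macrophage markers (8 genes, led by Mrc1 and Clec4n) reached at most 9.43 and 16.5 CPM, with Lyve1, Cd163 and F13a1 at 0 throughout. All 10 microglia markers were seen in every library, as the label states. Of these, 9 had a log2 fold change above 0, against 50.4% of all genes, with a median of 0.15. The test called 1, Csf1r (0.28, edgeR adjusted p = 0.0049), against 0.844% of all genes called higher. Without plasma-negative library 4 it called 4 higher, against 126 of 13987 genes called higher in that fit. Corrected for length and GC content, 4 of the 10 lay above 0, the median was -0.01 and Csf1r had an edgeR adjusted p of 0.0432. Their part in the pump values was not tested. Total counts ran from 2963094 (plasma-negative library 4) to 21422738, and the remaining 7 libraries held at least 9421708.

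Genes that assemble or regulate the pump form a list of 13, of which 12 were tested. A single gene passed the test: Dmxl1, part of the RAVE-like complex that joins V1 to V0, fell, against 0.565% of all genes called lower. It was at 59.95, 37.6, 58.6 and 42.7 CPM in plasma-negative libraries and at 15.6, 20.3, 22.3 and 26.9 CPM in plasma-positive ones, with no overlap. Its log2 fold change was -1.23 (SE 0.27, edgeR adjusted p = 0.0488). DESeq2 also called it (adjusted p = 0.00027), and limma did not (adjusted p = 0.211 and 0.261). Leaving out any 1 of the 8 libraries gave edgeR adjusted p-values of 0.0604 to 0.134, and the length and GC correction gave -0.66 (edgeR adjusted p = 0.385). The edgeR call was also lost with upper quartile scaling, with counts thinned to the smallest library total and without the filter on low counts.

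Of the same list, 3 genes had an unadjusted p under 0.05 in the other direction, against 7.13% of all genes, and 8 of 12 were above 0, against 50.4%, with a median of 0.41. Rnasek, a membrane protein that binds the pump and takes part in endocytosis, was at 156, 141, 144 and 131 CPM in plasma-negative libraries and at 216, 230, 183 and 209 CPM in plasma-positive ones. These groups do not overlap. The log2 fold change of Rnasek was 0.55 (SE 0.12), just short of the threshold in edgeR (adjusted p = 0.0507), called by DESeq2 (adjusted p = 0.00030) and 0.20 after the length and GC correction. In edgeR, upper quartile scaling, thinned counts and a filter at a mean count of 50 each called 1 gene of the list higher. Over all genes these called 141 of 13277, 118 of 11062 and 124 of 11253 higher. Rogdi, another member of the RAVE-like complex, had a log2 fold change of 0.36, not called by edgeR (adjusted p = 0.172) but called by DESeq2 (adjusted p = 0.0179) and by limma at either pseudocount (adjusted p = 0.0302 and 0.0291). After the length and GC correction it was 0.17.

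The pump also serves as a platform for amino acid sensing by the Ragulator complex, the Rag GTPases and mTORC1. Of 17 such genes 16 were tested, and edgeR called 0, against 1.41% of all genes. At an unadjusted p under 0.05 there were 2, both lower, against 13.8% of all genes in either direction. In that fit 7 of 16 were above 0, against 50.4% of all genes, with a median of -0.08. The median was -0.20 after the length and GC correction, against -0.06 over all genes. With limma at pseudocounts of 1 and 0.1 it was 0.08 and 0.09, against 0.11 and 0.16. DESeq2 called 1 of the genes, Rptor, the scaffold of mTORC1 (adjusted p = 0.0316), a share near the 6.49% of all genes that it called. limma called 0, against up to 3.37% of all genes. Rptor was at 183 ± 40.2 and 125 ± 17.3 CPM (SD, n = 4), with a log2 fold change of -0.55 (edgeR adjusted p = 0.156). After the length and GC correction it was -0.28. Rragc, a Rag GTPase, had a log2 fold change of -0.06 (edgeR adjusted p = 0.951).

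The MiT/TFE factors, whose binding word is shown in the promoter stretches above, had 3 of 4 genes tested, and edgeR, DESeq2 and limma each called 0, with 0 at an unadjusted p under 0.05, against 1.41%, 6.49% and up to 3.37% of all genes called and 13.8% at that p. Tfe3 was at 200.2 ± 47.6 and 187 ± 17.6 CPM (SD, n = 4; log2 fold change -0.10, edgeR adjusted p = 0.865) and Tfeb at 57.3 ± 4.71 and 64.4 ± 7.37 CPM (SD, n = 4; log2 fold change 0.17, edgeR adjusted p = 0.749). Tfec had 0 counts in all libraries. Of the 14 ion channels and exchangers that balance the charge moved by the pump, 12 were tested and edgeR, DESeq2 and limma each called 0, where the same shares of all genes apply. In edgeR, 3 had an unadjusted p under 0.05 (1 higher and 2 lower), against 13.8% of all genes, and the median was -0.07. The sign of this median turned with the setting. It was 0.10 after the length and GC correction, against -0.06 over all genes. With limma it was 0.07 at either pseudocount, against 0.11 and 0.16 over all genes. Clcn4, a chloride and proton exchanger, and Slc9a9, an endosomal sodium and proton exchanger, were the highest in CPM of the list and had log2 fold changes of 0.02 and -0.09.

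Other lysosomal genes of the same fit give the setting of the pump values. Of 16 other lysosomal membrane proteins, all tested, 3 rose and none fell, against 0.844% of all genes called higher, with 13 above 0, against 50.4% of all genes, and a median of 0.22. They were Laptm5, a lysosomal protein of immune cells (6656 ± 377 and 8256 ± 281 CPM, log2 fold change 0.31, edgeR adjusted p = 0.0080), Lamp1, an abundant glycoprotein of the membrane (1369 ± 175 and 1869 ± 56.6 CPM, 0.45, edgeR adjusted p = 0.0259), and Cd63, a tetraspanin (152 ± 23.6 and 236 ± 22.8 CPM, 0.64, edgeR adjusted p = 0.0452; SD, n = 4 for each). Once length and GC content were corrected for, 0 of the 16 had a call, against 0.512% of all genes. The list had 1 call without plasma-negative library 1 or 3 or any 1 of the plasma-positive libraries, 2 without plasma-negative library 2 and 3 without plasma-negative library 4. In these fits 66 to 93 of all genes were called, and 203 without plasma-negative library 4.

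Of 25 soluble hydrolases, the enzymes that the pump's acid activates and their helper proteins, 7 rose and none fell, against 0.844% of all genes called higher, and all 25 were above 0, against 50.4% of all genes, with a median log2 fold change of 0.28. The lysosomal activator precursor Psap had a log2 fold change of 0.43, and the cathepsin proteases had 0.59 for Ctss, 0.44 for Ctsb and 0.25 for Ctsd, with edgeR adjusted p-values of 0.0016 for Psap and Ctss, 0.0049 for Ctsb and 0.0057 for Ctsd. Without plasma-negative library 4 the list had 11 calls, where 126 of 13987 genes were called higher. Without any other 1 library it had 5 or 6, where 41 to 60 of all genes were called higher. Once length and GC content were corrected for, 4 of the 25 were called, against 0.512% of all genes, 19 were above 0, against 5912 of 13277, and the median was 0.15, against -0.06. With that correction the log2 fold change was 0.01 for Ctsd (edgeR adjusted p = 0.949) and 0.20 for Psap (edgeR adjusted p = 0.141), no longer called, and 0.43 for Ctsb and 0.31 for Ctss, still called (edgeR adjusted p = 0.0162 and 0.0462). With the replicate number added as a block, Ctsb alone of the 25 was called and Ctss was not. In that fit 4 of 13277 genes were called higher. The medians of the 10 pump genes (0.21), the membrane proteins (0.22) and the hydrolases (0.28) were close, and the difference between these lists was not tested.

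**Figure D5:**
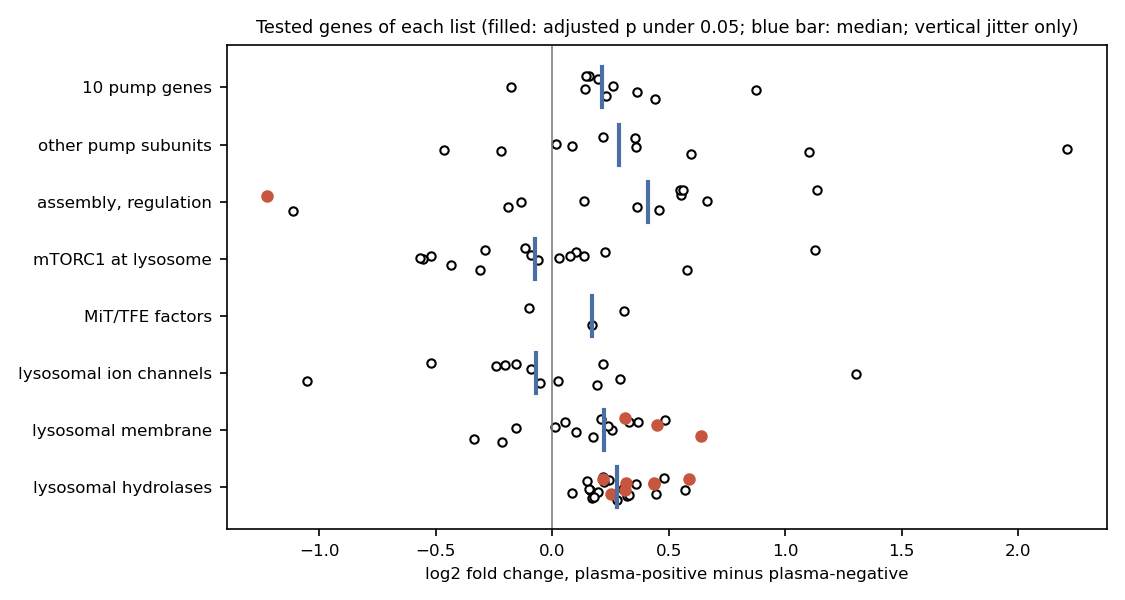
Log2 fold change (x axis, plasma-positive minus plasma-negative) of each tested gene in 8 lists, filled where the edgeR adjusted p was under 0.05, with blue bars at the medians. All filled points of the lysosomal membrane and hydrolase lists lie to the right of 0, no pump gene is filled, and the filled point on the left is Dmxl1.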

How the data were processed

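Whole-number read counts per gene and library were deposited by the authors, 1 column per library, and RPKM values were deposited by the authors for the same genes, per the file headers. The submitters' processing notes name bcl2fastq, Trim Galore, STAR, HTSeq and build mm10, without versions; strand and multi-mapping settings are not given in the sources used here. Another 16 per-sample columns were not used. Of 35583 gene identifiers, 35546 were in GENCODE M21 and 35384 had the same start and end there, from which exon lengths were taken. Coordinates are those of the deposited tables (mm10).

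Groups and replicate numbers came from the titles, and the labels name no batch. The test was that of edgeR 4.0.16 under R 4.3.3 (TMM factors, default filter by group, quasi-likelihood F test, two-sided, Benjamini-Hochberg over 13277 genes, threshold 0.05). Standard errors are the fold change over the square root of F. Levels in CPM use TMM-adjusted totals. Paralog shares were compared by exact permutation over 70 assignments (smallest p = 0.0286). Alternatives were other scalings and filters, DESeq2 1.42.0, limma 3.58.1 on log2(RPKM + 1) or + 0.1, the replicate number as a block, thinning, a loess correction per library for exon length and GC content (span 0.3), and leaving out each library. The loess was learnt on genes of at least 32 CPM, a choice made after seeing the data.

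The genes and all lists were chosen with earlier results of these data known. Named genes are the 10, all tested subunit genes, up to 4 called genes with the smallest p of each list or, under 2 calls, the 2 highest in CPM, and the 2 highest markers; Dmxl1, Rnasek and Rogdi meet this rule. One gene that meets it is not reported here. Correlations of deviations between same-numbered libraries were 0.0109 to 0.0315, with a mean of 0.0167, against -0.00556 for different numbers. These small values neither show nor exclude pairing, so the replicate number was used as a block only among the alternatives. Libraries held 2963094 to 21422738 counts. Smart-seq2 reads carry no molecular identifiers here, so floors cover counting error only.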

Additional observations from a re-analysis of the deposited data

Results flagged for a closer look

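Among 44 groups of 4 libraries examined for pump genes, 6 held a library set apart from the others of its group; chance alone sets apart about 5% of groups. For Atp6v0b, plasma-negative library 2 was at 379.5 CPM, with the nearest library at 473.6 CPM. For Atp6v0a2, plasma-negative library 4, the one with the fewest counts, was at 265.2 CPM, with the nearest at 181.7 CPM. Plasma-positive library 2 stood above its group for Atp6v0e2 (26.2 CPM, nearest 4.36 CPM) and for Atp6v1f (136.7 CPM, nearest 114.5 CPM). Plasma-positive library 4 was high for Atp6v1c1 (279.1 CPM, nearest 251.5 CPM) and low for Atp6v1h (34.97 CPM, nearest 71.6 CPM). Without plasma-negative library 2 the log2 fold change of Atp6v0b was 0.08, and without plasma-positive library 2 that of Atp6v1f was 0.52.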

How the results depend on the processing

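Of 200 values of the 10 pump genes over 20 alternatives, 188 kept their direction and side of the threshold, 6 gained a call and 6 changed sign. Pump genes called were 0 with edgeR, 1 with DESeq2, 2 and 1 with limma on log2(RPKM + 1) and + 0.1, and 0 to 1 when a library was left out (1 without plasma-negative library 2 or 4). The other subunit genes had 0 calls with edgeR, 1 each with DESeq2 and both limma fits, and 0 to 0 without a library. Over all genes, edgeR called 187, DESeq2 965, limma 447 and 432, the length and GC correction 68, and leaving out 1 library 66 (without plasma-negative library 3) to 203 (without plasma-negative library 4); leaving out any library but plasma-negative library 4 lowered the count by over 1.5 times (90, 86 and 66 without plasma-negative libraries 1 to 3; 68, 73, 93 and 78 without plasma-positive libraries 1 to 4). Calls were higher in plasma-positive libraries for 59.9% with TMM, 28.2% with library totals only (median of all genes -0.11), 49.8% with DESeq2, and 86.8% and 85.6% with limma; pump genes above 0 stayed 9 of 10 in these. The cause was not tested.

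Blocking on the replicate number left 74 genes called, and 7 with the block and the length and GC correction together, none of them pump genes. The lysosomal membrane list then had 1 call and the hydrolases 6, with the correction added 0 and 1, and there Csf1r was not called (edgeR adjusted p = 0.0818); Dmxl1 was not called with the block (edgeR adjusted p = 0.140). The correlations between libraries neither show nor exclude pairing, and 1 of 4 libraries matched its own number best. For the share of Atp6v0a1 the block gave -2.68 points and for that of Atp6v0e -4.22 points (exact sign-flip p = 0.25 for each). Leaving out 1 library gave -3.85 to -2.01 points and -5.90 to -0.20 points.

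Signs changed for small differences. The length and GC correction, without and with the block, gave -0.087 and -0.082 for Atp6v0b, -0.12 and -0.14 for Atp6v0d1, -0.092 and -0.094 for Tcirg1, 0.065 and 0.10 for Atp6v1h, and 0.059 and 0.074 for Tfe3. Relative log expression gave -0.0047 for Tcirg1 and -0.00030 for Clcn4, DESeq2 -0.0053 for Tcirg1, and library totals -0.10 for Tcirg1, -0.028 for Atp6v1d and -0.091 for Clcn4. limma at pseudocounts of 1 and 0.1 gave 0.10 and 0.10 for Rragc, 0.051 and 0.055 for Tfe3, and 0.037 and 0.038 for Slc9a9. Leaving out 1 library gave -0.043 to 0.31 for Atp6v1a (-0.0050 without plasma-negative library 3), -0.11 to 0.13 for Tcirg1, -0.0074 to 0.19 for Atp6v1d, -0.39 to 0.12 for Atp6v1h, -0.17 to 0.26 for Rragc, -0.22 to 0.031 for Tfe3 and -0.10 to 0.11 for Clcn4. Thinning to 2963094 counts changed no pump call. With 4 libraries a group, the 95% intervals of the 10 genes are wide, and depth is lowest in plasma-negative library 4.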
